A study of Mus musculus with 23 samples.

Results

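Lymphocytes and macrophages of the mouse colon were followed here through 41 marker genes, of which 20 are typical of T cells and natural killer (NK) cells, 8 of B cells and plasma cells, and 13 of macrophages. The genes were taken by name from general knowledge of these cells. A probe set of its own was present for 40 of the 41, out of 18820 genes measured in all. Foxp3, the transcription factor of regulatory T cells, was represented only by probe sets shared with neighbouring genes and got no value. Scraped colon mucosa was analysed on 1 array per male mouse, which gave 23 arrays. The groups were 6 heme-fed KO mice, 6 KO mice on the control diet, 6 heme-fed WT mice and 5 WT mice on the control diet. KO mice carried the disrupted Ppara allele of strain 129S4/SvJae-Pparatm1Gonz/J in all cells, whereas the WT mice were of strain 129S1/SvImJ. Genotype therefore cannot be told apart from substrain in any comparison of KO with WT. Mice were 7 to 9 weeks old when the diets began. All groups ate a Westernized diet with 40 energy% fat and 30 µmol calcium per g for 14 days, and in the heme groups it also held 0.5 µmol heme per g.

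The epithelium of the gut houses intraepithelial lymphocytes, many of them CD8 T cells, which carry cytotoxic granules and lie between the epithelial cells. Interleukin-15, presented on its receptor by epithelial and myeloid cells, keeps NK cells and many of these T cells alive. B cells gather in lymphoid follicles of the colon wall, plasma cells in the connective tissue secrete immunoglobulin A, and macrophages below the epithelium take up microbes and dying cells. A scraping holds all of these cells in varying amounts.

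Values are linear signals, which are 2 to the power of the log2 value of the array, and folds are on the log2 scale. A gene was called when its adjusted p from limma (Benjamini-Hochberg over all 18820 genes) was under 0.01 and at least 1 group in the comparison had a mean signal above 20. Of the 40 markers 38 passed this signal minimum in some group. The exceptions were Ncr1 and Klrk1, which encode the activating receptors NKp46 and NKG2D of NK cells, with group means of 12.4 to 14.8 and 11.2 to 13.3. The defining NK receptor was thus not above the level taken as absent. Cd3d, a chain of the T cell receptor complex, was close to it, at 15.6 to 23.2 over all mice, while Cd3e lay between 52.3 and 143. The group means ran from 24.1 to 937 for the B and plasma cell markers and from 25.1 to 1085 for the macrophage markers, and probe sets of different genes cannot be ranked by signal. Ppara itself had a signal of 200.03 ± 31.55 in heme-fed KO mice and 415 ± 43.9 in heme-fed WT mice (SD, n = 6 each), and of 310 ± 46.5 in KO mice and 495 ± 50.9 in WT mice on the control diet (SD, n = 6 and 5). Whether its probes lie in the disrupted part of the gene was not tested.

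Some mice stood apart in many markers at once. Among the heme-fed KO mice, replicate 1 had the highest signal of its group in 30 of the 40 genes and the highest of all 23 mice in 23, and replicate 6 had the lowest of its group in 27. Among the WT mice on the control diet, replicate 3 had the lowest signal of its group in 11 of the 13 macrophage genes, and the lowest of all 23 mice in 10. For the markers and for counts of calls that these mice moved by over 1.5 times, values without them are given below. They were singled out after seeing the data. Among the KO mice on the control diet, replicate 3 had the highest signal of its group in 11 of the 13 macrophage genes, and the highest of all 23 mice in 4. Medians without this mouse are not given here. Fewer cells of a type and less RNA per cell cannot be told apart in such whole-tissue samples.

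On heme 4 of the 40 markers (10%) fell in WT mice and none rose, where 17.9% of all genes were called. In KO mice 4 fell and 1 rose (12.5%), where 18.4% of all genes were called. The share of called markers was thus not above that of all genes in either genotype. The genes that fell in both genotypes were Gzma, Nkg7 and Itgam. Klrd1 fell in WT mice and Ccl5 in KO mice, and the gene that rose in KO mice was Cd14. No marker had a heme effect that differed between the genotypes by the interaction test, in which 0.0106% of all genes were called and 4 markers had an unadjusted p under 0.05. The median log2 fold change of the 40 genes was -0.04 in WT and -0.01 in KO mice, beside a median of -0.01 over all genes in each.

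**Figure D1:**
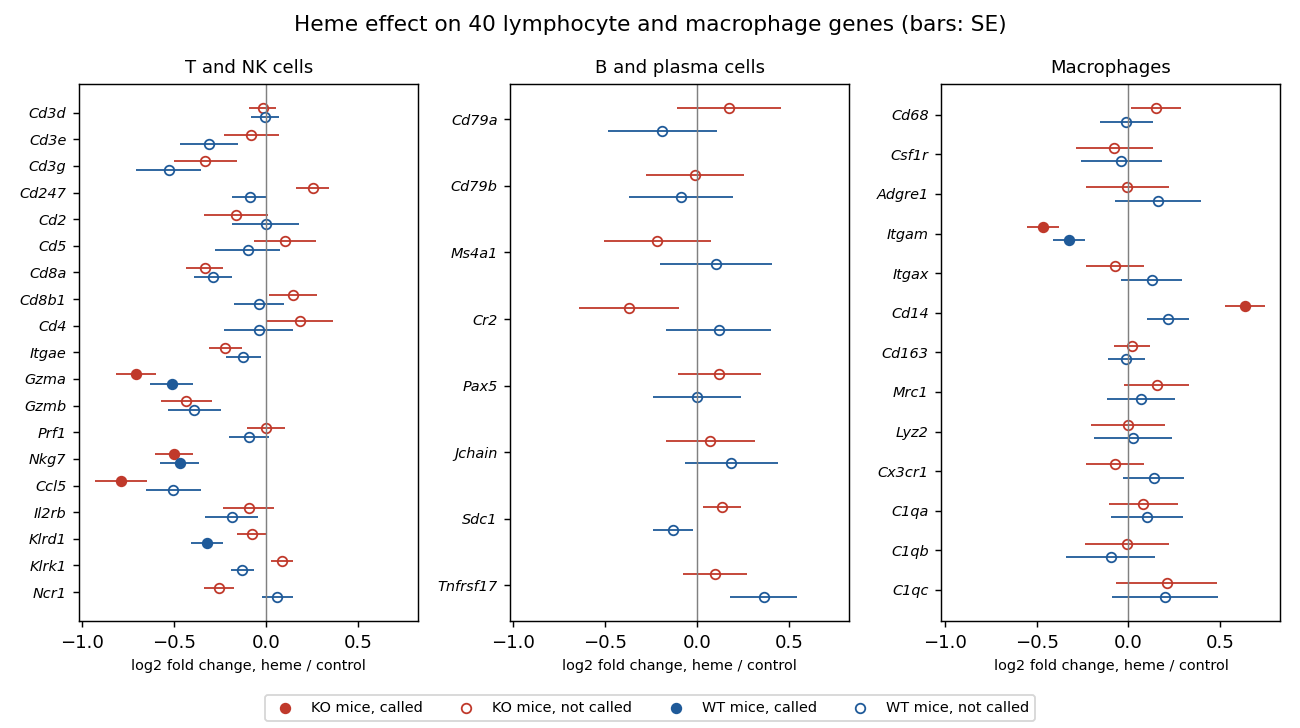
Effect of heme as log2 fold change (horizontal axis) of the 40 measured markers in KO mice (red, n = 6 and 6) and WT mice (blue, n = 6 and 5), with SE bars and with called genes filled. Filled points lie left of 0 for Gzma, Nkg7, Ccl5, Klrd1 and Itgam and right of 0 for Cd14 alone, and no B or plasma cell gene is filled.

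Promoter sequences from RefSeq (GRCm38.p6) are shown for 3 of the 6 markers called in any comparison, to let a reader see the start of genes that fell in both genotypes. Availability set this choice, and those of Ccl5, Klrd1 and Cd14 are not shown. Each runs from 250 bases before to 50 bases after the start of the gene, 5′ to 3′ on its own strand. Capitals mark matches, on either strand, to GTGTGA (a core of T-box factors such as T-bet and Eomes), TGTGGT (a core of Runx factors) and GAGGAA (a core of PU.1, a factor of myeloid cells). No marked matches overlap.
Gzma (chr13:113100932-113101231, minus strand): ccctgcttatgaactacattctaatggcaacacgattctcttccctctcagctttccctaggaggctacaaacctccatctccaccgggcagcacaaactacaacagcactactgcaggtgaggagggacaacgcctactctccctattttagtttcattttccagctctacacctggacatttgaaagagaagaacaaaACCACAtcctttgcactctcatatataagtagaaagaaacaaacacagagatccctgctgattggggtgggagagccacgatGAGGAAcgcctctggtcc
Nkg7 (chr7:43436888-43437187, plus strand): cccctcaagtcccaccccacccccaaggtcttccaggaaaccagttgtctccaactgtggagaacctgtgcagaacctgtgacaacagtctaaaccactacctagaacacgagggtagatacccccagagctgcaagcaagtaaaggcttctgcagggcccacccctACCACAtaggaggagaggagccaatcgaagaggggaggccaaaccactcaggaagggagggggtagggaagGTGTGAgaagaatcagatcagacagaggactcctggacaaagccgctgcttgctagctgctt
Itgam (chr7:128062390-128062689, plus strand): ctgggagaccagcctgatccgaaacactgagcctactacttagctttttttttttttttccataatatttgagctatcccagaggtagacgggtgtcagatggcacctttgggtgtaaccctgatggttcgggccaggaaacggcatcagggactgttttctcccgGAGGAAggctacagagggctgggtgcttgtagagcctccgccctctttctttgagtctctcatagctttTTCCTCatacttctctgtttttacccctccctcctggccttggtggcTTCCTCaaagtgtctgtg
The Runx letters occurred 1 time each in the windows of Gzma and Nkg7, at positions -50 and -83 from the start, and the T-box letters 1 time in that of Nkg7, at -12. The PU.1 letters occurred 3 times in the window of Itgam and 1 time in that of Gzma. Of 32851 promoters of the same length 16.8% held the Runx letters, 14.5% the T-box letters and 28.3% the PU.1 letters. These matches are descriptions of the sequence only.

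Among the T and NK cell genes, Gzma and Nkg7 fell in both genotypes, Ccl5 in KO mice and Klrd1 in WT mice. Gzma encodes granzyme A, a protease that cytotoxic cells deliver into their targets. Its signal in heme-fed KO mice had a lowest, median and highest value of 15.8, 17.8 and 20.1, against 23.2, 31.4 and 33.9 in KO mice on the control diet, with no overlap. In heme-fed WT mice these values were 17.1, 19.5 and 21.6, whereas the WT control mice had 29.0, 20.2, 32.8, 31.6 and 26.9. WT control replicate 2, at 20.2, was the only control mouse in the range of the heme-fed ones. Gzma fell with a log2 fold change of -0.71 (± 0.11 SE; limma, adjusted p = 4.32e-05) in KO mice and of -0.51 (± 0.11 SE; limma, adjusted p = 0.0016) in WT mice. Of the heme-fed mice 4 of 6 in each genotype lay below a signal of 20, and the gene passed the signal minimum through the control mice.

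Nkg7 encodes a membrane protein of the granules of NK cells and CD8 T cells that is needed for their release. It was lower in all heme-fed mice than in any control mouse of the same genotype. Heme-fed KO mice had 26.2, 29.2 and 38.1 as lowest, median and highest signal, with 38.1, 42.9 and 51.3 in KO control mice. In heme-fed WT mice the signals were 24.3, 29.9 and 32.7, and in the WT control mice 32.9, 35.9, 43.1, 44.1 and 43.8. The ranges only just separated, since the nearest mice differed by less than 1 unit of signal in both genotypes. The log2 fold changes were -0.50 (± 0.10 SE; limma, adjusted p = 7.04e-04) in KO and -0.47 (± 0.11 SE; limma, adjusted p = 0.002) in WT mice.

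Ccl5, also called RANTES, is a chemokine that activated and memory T cells and NK cells store and secrete. Its signal in heme-fed KO mice was 48.3, 64.7 and 105 as lowest, median and highest value, against 104, 116 and 128 in KO mice on the control diet. The single overlap came from heme-fed KO replicate 1 at 105, while the other 5 mice lay at 48.3 to 70.3. Ccl5 fell with a log2 fold change of -0.79 (± 0.14 SE; limma, adjusted p = 1.91e-04) in KO mice, the lowest value of any marker. WT mice had 59.045, 71.3 and 108 on heme, and 91.4, 107, 105, 115 and 115 on the control diet. Here the log2 fold change was -0.50 with an adjusted p of 0.0129, and past the threshold (0.00259) in the fit without KO heme replicate 1.

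Klrd1 encodes CD94, which pairs with NKG2 receptors on NK cells and CD8 T cells. In heme-fed WT mice its signal was 25.5, 27.6 and 35.9 as lowest, median and highest value, and the WT control mice had 31.5, 37.0, 32.6, 42.1 and 38.9. It fell there with a log2 fold change of -0.32 (± 0.09 SE; limma, adjusted p = 0.00667). The call was lost without any 1 of 7 WT mice. In KO mice the signals were 28.6, 30.6 and 31.2 on heme and 28.1, 32.9 and 36.4 on the control diet, with a log2 fold change of -0.08 (adjusted p = 0.54). The difference between the genotypes in this effect was 0.24 on the log2 scale and was not called (adjusted p = 0.736).

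**Figure D2:**
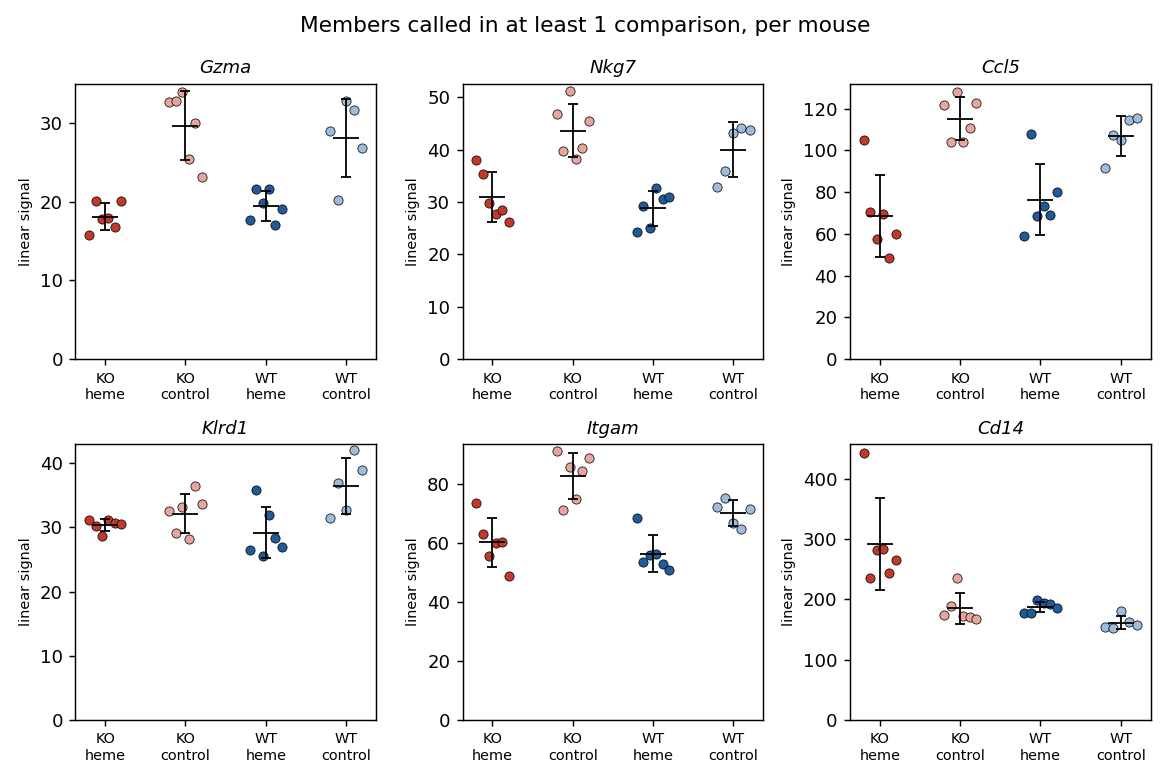
Linear signal (vertical axis, from 0) per mouse of the 6 markers called in at least 1 comparison, in the 4 groups, with group means and SD bars (n = 6, 6, 6 and 5). The means of Gzma, Nkg7, Ccl5 and Itgam lie lower in heme-fed mice of both genotypes, and the heme-fed KO mice lie highest in Cd14, with replicate 1 at 443.

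The remaining T and NK genes were not called on heme in either genotype. Gzmb, which encodes granzyme B, had log2 fold changes of -0.44 in KO (adjusted p = 0.0203) and -0.39 in WT mice (adjusted p = 0.0472). Cd8a, the α chain of the CD8 coreceptor, had -0.33 in KO (adjusted p = 0.014) and -0.29 in WT mice (adjusted p = 0.0423). Its partner chain Cd8b1 had 0.14 in KO and -0.04 in WT mice. Prf1, the pore-forming perforin, had -0.00 in KO and -0.09 in WT mice. Of the CD3 chains Cd3g had -0.33 in KO and -0.53 in WT mice (adjusted p = 0.159 and 0.028) and Cd3d -0.02 and -0.00. Itgae, the αE integrin that holds intraepithelial T cells to E-cadherin and that some dendritic cells also carry, had -0.22 and -0.12. Il2rb, the β chain shared by the receptors for interleukin-2 and interleukin-15, had -0.09 and -0.19. The adhesion receptor Cd2 had -0.16 and -0.00, Cd3e -0.08 and -0.31, and Cd247, the ζ chain of the T cell receptor complex, 0.25 and -0.09 (adjusted p = 0.0367 in KO mice). Below the signal minimum, Ncr1 had -0.26 and 0.06 and Klrk1 0.09 and -0.13. Cd4, the coreceptor of helper T cells that macrophages may also carry, had 0.18 and -0.04. Over the 19 measured T and NK genes 3 fell in KO and 3 in WT mice (15.8% in each) and none rose. Of all genes 18.4% were called in KO and 17.9% in WT mice. The medians of the list were -0.094 in KO and -0.13 in WT mice.

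KO heme replicate 1 bore on these counts. Its Cd3e signal was 143, while the other 5 mice of its group had 57.9 to 75.4, and its Cd5, an inhibitory coreceptor of T cells, stood at 123 against 45.9 to 63.1 in those mice, with log2 fold changes on heme of 0.10 in KO and -0.10 in WT mice. Without this mouse 6 of the 19 genes fell in KO mice, with Cd3g (-0.50, adjusted p = 0.00619), Cd8a (-0.43, adjusted p = 3.90e-04) and Itgae (-0.32, adjusted p = 9.35e-04) added to Gzma, Nkg7 and Ccl5, and 5 fell in WT mice. The list's median in KO mice was then -0.262. In that fit 18.6% of all genes were called in each genotype. Without KO heme replicate 6 the median in KO mice was -0.036, with Gzma, Nkg7 and Ccl5 called.

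The signal of smooth muscle genes in the scrapings moved with the diet too. Of 13 measured smooth muscle genes 11 fell on heme in WT mice (median log2 fold change -1.161) and 1 fell in KO mice (-0.435). Their mean log2 level was 7.67 to 8.34 in heme-fed and 7.75 to 8.96 in control KO mice, and 7.83 to 8.38 in heme-fed and 8.53 to 10.01 in control WT mice. With this level as a covariate 1 T and NK gene was called in WT mice, namely Gzma, and 6.49% of all genes. In KO mice 3 were called, and 15.9% of all genes. The WT log2 fold changes of Nkg7 and Klrd1 did not shrink in that fit, although their calls were lost. They were -0.58 and -0.40 (limma, adjusted p = 0.0116 and 0.0262), against -0.47 and -0.32 without the covariate. The part of muscle in the T and NK results was not tested beyond this. Of 14 genes of white blood cells in general, such as Ptprc (CD45), none was called on heme in either genotype, and none had an unadjusted p under 0.05, with medians of -0.054 in KO and -0.027 in WT mice. Their median in KO mice was -0.27 without KO heme replicate 1 and 0.089 without replicate 6, and in WT mice it was -0.096 without WT control replicate 3, with no call in any of these fits. Of 14 epithelial genes 3 rose and 2 fell in KO mice (35.7%, against 18.4% of all genes), with a median of 0.035. In WT mice 2 rose and 1 fell (21.4%, against 17.9%), with a median of 0.034.

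B cell and plasma cell genes showed no call in any comparison. Of the 8 genes none had an unadjusted p under 0.05 for heme in either genotype by limma, and the medians were 0.083 in KO and 0.05 in WT mice. Cd79a and Cd79b, the signalling chains of the B cell receptor, had log2 fold changes on heme of 0.17 and -0.01 in KO and -0.19 and -0.09 in WT mice, and spread widely among heme-fed KO mice. Cd79a had 104, 247 and 724 as lowest, median and highest signal in heme-fed KO mice, and 172, 225 and 338 in KO mice on the control diet. In heme-fed WT mice it had 121, 168 and 208, and in WT control mice 188, 187, 176, 175 and 192. KO heme replicate 1 carried the highest value and replicate 6 the lowest.

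The same mouse was highest in Ms4a1, which encodes CD20 (353, with 58.7 as the lowest of its group), in Cr2, the complement receptor CD21 of follicular B cells (166 and 28.2), and in Pax5, the factor that fixes B cell identity (220.1 and 54.5). Their log2 fold changes on heme were -0.22, -0.37 and 0.12 in KO and 0.10, 0.12 and -0.00 in WT mice. Among the plasma cell genes Jchain, which joins IgA molecules, ran from 430.4 to 1596 in heme-fed KO mice and from 538 to 1007 in heme-fed WT mice. Tnfrsf17, the survival receptor BCMA, had a log2 fold change on heme of 0.10 in KO and 0.36 in WT mice (adjusted p = 0.744 and 0.153). Sdc1, a marker of plasma cells that the colon epithelium also makes in quantity, had 0.13 and -0.13. It was the only gene of this list in which KO heme replicate 1 was not the highest of its group. Without this mouse the median of the 8 genes in KO mice was -0.123, and without KO heme replicate 6 it was 0.209, with none called in either fit.

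**Figure D3:**
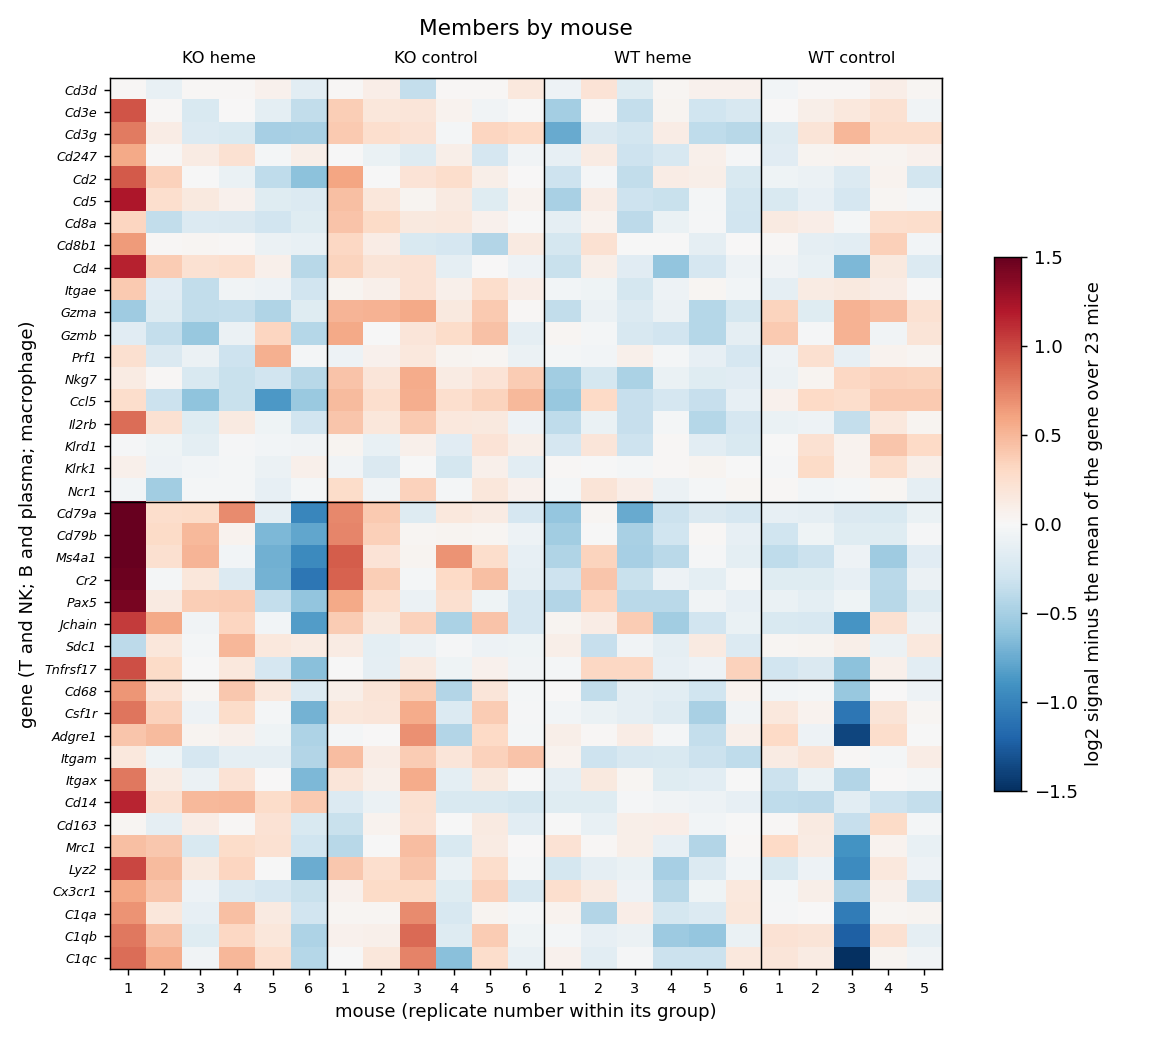
Log2 signal of each marker (rows: T and NK, B and plasma, and macrophage genes) in each mouse (columns, by group and replicate number) minus the gene's mean over the 23 mice. KO heme replicate 1 is the highest of its group in 30 of 40 genes, and WT control replicate 3 is lowest of its group in 11 of 13 macrophage genes.

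Macrophage genes parted into 2 that changed in opposite directions and 11 without a call. Itgam encodes CD11b, the α chain of complement receptor 3, which macrophages share with monocytes, neutrophils, eosinophils and NK cells. Heme-fed KO mice had 48.8, 60.2 and 73.7 as lowest, median and highest signal, and KO control mice 71.3, 85.1 and 91.4. The heme-fed WT mice had 50.9, 54.7 and 68.5, and the WT control mice 72.4, 75.5, 66.9, 65.0 and 71.5. In each genotype 1 heme-fed mouse, replicate 1 of its group, reached into the control range. Itgam fell with a log2 fold change of -0.46 (± 0.09 SE; limma, adjusted p = 2.46e-04) in KO and of -0.32 (± 0.09 SE; limma, adjusted p = 0.00831) in WT mice. The WT call was lost without any 1 of 12 mice, and with the smooth muscle level as a covariate the WT value was -0.16 (adjusted p = 0.385).

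Cd14 encodes the coreceptor for bacterial lipopolysaccharide on monocytes and macrophages, and epithelial and other cells can carry it too. Its signals in heme-fed KO mice were 236, 273 and 443 as lowest, median and highest value, whereas KO mice on the control diet had 168, 173 and 236. The highest control mouse, at 235.6, lay just below the lowest heme-fed mouse, at 236.2. Heme-fed WT mice had 177, 188 and 199, and WT control mice 154, 153, 180.0, 163 and 157. Cd14 rose on heme in KO mice with a log2 fold change of 0.63 (± 0.11 SE; limma, adjusted p = 1.45e-04), and had 0.22 in WT mice (adjusted p = 0.18). Without KO heme replicate 1 the value in KO mice was 0.51 (adjusted p = 3.16e-05). The difference between these effects was 0.42 and not called (adjusted p = 0.621), so a different response of the genotypes was not shown.

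The classical complement genes C1qa, C1qb and C1qc, which tissue macrophages make in quantity, were not called. Their log2 fold changes on heme were 0.08, -0.01 and 0.21 in KO mice and 0.10, -0.10 and 0.20 in WT mice. WT control replicate 3 decided the WT values in part. Its C1qc signal was 44.4, against 147 to 173 in the other 4 mice of its group, and its Adgre1, which encodes the F4/80 antigen, was 30.5 against 75.3 to 97.5. Csf1r, the receptor for the growth factor of macrophages, had 76.3 in this mouse and 165 to 186 in the others. The median of the 13 genes on heme in WT mice was 0.067 with this mouse and -0.13 without it. In KO mice it was -0.003, with -0.073 without KO heme replicate 1 and 0.12 without replicate 6. With the smooth muscle level as a covariate the medians were 0.199 in KO and 0.429 in WT mice, and 12 of the 13 genes lay above 0 in each. Csf1r and Adgre1 had -0.08 and -0.01 in KO and -0.04 and 0.16 in WT mice. Of the others, Cd68 of lysosomes, the scavenger receptor Cd163, the mannose receptor Mrc1 and the fractalkine receptor Cx3cr1 had log2 fold changes between -0.07 and 0.15 in both genotypes. The same holds for Itgax, the αX integrin that dendritic cells also carry, in KO and WT mice (-0.07 and 0.13). Lyz2, lysozyme M, had -0.00 and 0.03, and its near copy Lyz1 may share its signal.

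Between the genotypes no marker was called on the control diet, where 0.0531% of all genes were called and 2 markers had an unadjusted p under 0.05. On the heme diet 1 marker was called (2.5%), beside 0.234% of all genes. This was Cd14, higher in KO than in WT mice with a log2 fold change of 0.61 (± 0.11 SE; limma, adjusted p = 0.00673). The 6 heme-fed KO mice lay above all 6 heme-fed WT mice. The value was 0.48 (adjusted p = 0.00138) without KO heme replicate 1, but the call was lost without any 1 of 7 other mice (adjusted p = 0.0122 to 0.0203) and in a fit of only these 2 groups (0.0801). On the control diet the log2 fold change of Cd14 was 0.19 (adjusted p = 0.939).

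Apart from Cd14, differences of the markers between the genotypes were not called. On the control diet 12 of the 13 macrophage genes and 7 of the 8 B and plasma cell genes had a log2 fold change above 0, with medians of 0.262 and 0.328, and on the heme diet the counts were again 12 and 7, with medians of 0.268 and 0.268. The 19 T and NK genes had medians of 0.036 and 0.088. Over all genes the medians were 0.0 on the control and -0.005 on the heme diet. All 14 general white blood cell genes were above 0 on both diets, with medians of 0.368 and 0.281, and none was called. These values moved with single mice, though not all to the same degree. On the heme diet the macrophage, B cell and general white blood cell medians were 0.129, 0.081 and 0.048 without KO heme replicate 1, where 10 of 13, 6 of 8 and 10 of 14 genes lay above 0. Without KO heme replicate 6 these medians were 0.361, 0.476 and 0.429, and on the control diet the macrophage median was 0.073 without WT control replicate 3. With WT control replicate 3 and KO heme replicate 1 both left out, the B and plasma cell median on the control diet was 0.313 (7 of 8 above 0). The general white blood cell median was then 0.28 (14 of 14 above 0). Smooth muscle genes moved with genotype on the control diet too, where 13 of 13 lay below 0 (median -0.608, 11 with an unadjusted p under 0.05, none called). With their level as a covariate the macrophage median on that diet was 0.46, and the part of muscle in these differences was not tested beyond this. Apart from Cd14 the lowest adjusted p of any marker was 0.227 on the heme and 0.359 on the control diet, and among the general white blood cell genes it was 0.0371 and 0.521.

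**Figure D4:**
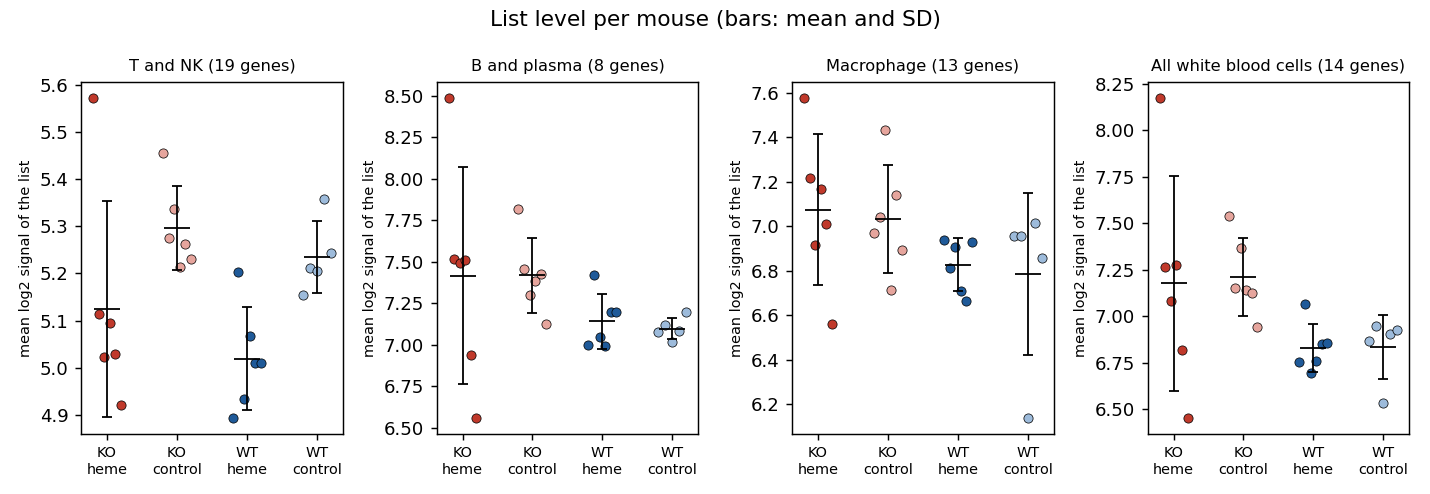
Mean log2 signal (vertical axis) of the T and NK, B and plasma, macrophage and general white blood cell genes in each mouse, with group means and SD bars. The spread within the heme-fed KO mice, 6.56 to 8.49 for B and plasma cell genes, is wider than the distance between any 2 group means, and WT control replicate 3 lies lowest for macrophage genes at 6.14.

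Interleukin-15 was of interest because 11 of the T and NK markers are carried by cells that can depend on it. Other cells carry some of the 11 too, such as dendritic cells Itgae, and dependence on interleukin-15 was not tested. Of these 11, 10 had a log2 fold change below 0 on heme in each genotype, with medians of -0.258 in KO and -0.289 in WT mice, and 3 fell in each (27.3%, against 18.4% of all genes in KO and 17.9% in WT mice). In WT mice the signs were not particular to these 11, since 18 of all 19 T and NK genes, the 11 included, lay below 0. In KO mice 14 of the 19 lay below 0. Of the genes outside the 11, Cd3d, Cd3e, Cd3g and Cd2 lay below 0 in KO mice and Cd247, Cd5, Cd8b1 and Cd4 above. Without KO heme replicate 1, 5 of the 11 fell in KO mice, with a median of -0.32. Under the smooth muscle covariate 3 of the 11 fell in KO mice and 1, Gzma, in WT mice. In that fit 15.9% of all genes were called in KO and 6.49% in WT mice. The spread of their mean log2 level was 4.71 to 5.11 in heme-fed and 5.03 to 5.26 in control KO mice, and 4.75 to 4.98 in heme-fed and 5.02 to 5.19 in control WT mice. The ranges did not overlap in WT mice, and in KO mice they overlapped only through KO heme replicate 1 at 5.11, as the other 5 heme-fed mice lay at 4.71 to 4.84. Il15 itself had a lowest, median and highest signal of 114, 137 and 166 in heme-fed KO mice, against 286, 353 and 408 in KO mice on the control diet. Heme-fed WT mice had 113, 166 and 198, and WT control mice 305, 313, 358, 357 and 350.3. Il15 fell with a log2 fold change of -1.35 in KO and -1.09 in WT mice, and Il15ra, the receptor chain that presents it, with -0.25 and -0.31.

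Among 13 measured genes of this pathway, 2 rose and 3 fell in KO mice (38.5%, against 18.4% of all genes). In WT mice 1 rose and 5 fell (46.2%, against 17.9%). These counts include Il15 and Il15ra, which fell in each genotype as given above. With the smooth muscle level as a covariate 5 were called in KO mice and 1, Il15 itself, in WT mice, beside 15.9% and 6.49% of all genes. The WT calls of Stat5b, Bcl2 and Eomes given next were thus lost in that fit. Stat5b, which carries the signal to the nucleus, fell in both (-0.27 in KO and -0.26 in WT mice). Bcl2, which keeps lymphocytes alive, fell in WT mice (-0.44) and had -0.27 in KO mice (adjusted p = 0.0142). Eomes, a T-box factor of NK cells and memory CD8 T cells, rose in both (1.15 in KO and 1.47 in WT mice). Nfil3, a factor that NK cells need to develop, rose in KO mice (0.68) and had 0.57 in WT mice (adjusted p = 0.0191). The T-box factor Tbx21, or T-bet, had -0.13 and -0.08. Jak3, Il2rg and Zfp683 had no probe set of their own.

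The relation of Il15 to the level of the 11 genes was examined across mice, within groups and within each diet. On deviations from group means over the 23 mice, Pearson's r with Il15 ran from -0.34 (Prf1; Spearman's rho -0.35) to 0.40 (Klrd1; rho 0.38). None of the 11 relations had an adjusted p under 0.05 (permutation within groups, two-sided; lowest adjusted p = 0.459 for r and 0.599 for rho), none had an unadjusted p under 0.05, and the same holds without the 2 mice farthest from the median of Il15. Among the 11 mice on the control diet r ran from -0.47 to 0.27, with a lowest adjusted p of 0.857 by permutation. Over the 12 heme-fed mice, with both genotypes pooled and their means not removed, Gzma had r = 0.75 and rho = 0.74 (permutation p = 0.0054 and 0.008, adjusted over 11 genes 0.0595 and 0.0882), which did not pass after adjustment. Of these 12 Gzma signals 8 lay under 20, and on deviations from group means over all 23 mice its r was 0.25 and rho 0.21 (permutation p = 0.209 and 0.318). Without the 2 mice farthest from the median of Il15, r was 0.70 and rho 0.65 (permutation p = 0.0264 and 0.0482, n = 10). Within the 6 heme-fed KO mice r was 0.49 and rho 0.43 (exact permutation p = 0.336 and 0.419), and within the 6 heme-fed WT mice r was 0.87 and rho 0.89 (exact permutation p = 0.0417 and 0.0333). Only Gzma, which had the highest r of the 11 genes over the heme-fed mice, was examined in these subsets. The p values of the subsets were not adjusted. They come from the mice that singled the gene out, so they add no support for a relation.

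Other genes of these cells gave a few more calls. Of 31 further T, NK and intraepithelial lymphocyte genes 3 fell in KO (9.68%) and 2 in WT mice (6.45%) and none rose, where 18.4% and 17.9% of all genes were called, with medians of -0.056 and -0.087. Cd7, a surface protein of T and NK cells, had log2 fold changes of -1.03 in KO and -0.58 in WT mice, and Xcl1, a chemokine of NK and CD8 T cells, -0.65 and -0.68. Ctsw, a protease of cytotoxic cells, fell in KO mice (-0.36). The KO count was 5 without KO heme replicate 1 and 2, Cd7 and Xcl1, without replicate 6, while 3 genes fell in WT mice without WT control replicate 3. Of 16 genes through which the epithelium holds these lymphocytes 5 fell in each genotype (31.2%, against the same shares of all genes) and none rose. With the smooth muscle level as a covariate 5 were called in KO and 3 in WT mice, beside 15.9% and 6.49% of all genes. The genes that fell without the covariate included Btnl1 and Btnl2, butyrophilin-like proteins that shape the γδ T cell pool of the gut (-0.69 and -0.98 in KO, -0.66 and -1.15 in WT mice). The chemokine Cx3cl1 (-0.40 and -0.54) and Ahr, the aryl hydrocarbon receptor (-0.24 and -0.32), were also among them. Btnl2 was called higher in KO than in WT mice on heme (0.59), although the 2 groups overlapped. On the control diet it was not called, but all KO mice lay above all WT mice.

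Of 21 further B and plasma cell genes 1 rose and 2 fell in each genotype (14.3%, against 18.4% of all genes in KO and 17.9% in WT mice). In the fit without KO heme replicate 1, 1 rose and 4 fell in KO mice, and without replicate 6, 1 rose and 1 fell. Prdm1, a factor of plasma cells that epithelial cells also make, rose (0.91 in KO and 0.54 in WT mice). Pigr, with which epithelial cells carry IgA into the lumen, fell (-0.33 and -0.41), as did Tnfsf13b, the B cell growth factor BAFF (-0.53 and -0.68). Of 25 further macrophage genes 2 fell in each genotype (8%) and none rose, and 3 fell in WT mice without WT control replicate 3. Ctss, a protease of antigen presentation, fell in both (-0.64 in KO and -0.73 in WT mice), Mertk, which takes up dying cells, in KO mice (-0.56), and Il34, a second ligand of Csf1r, in WT mice (-0.75).

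Of 16 mast cell, neutrophil and eosinophil genes 5 rose and 2 fell in KO mice (43.8%, against 18.4% of all genes) and 3 rose and 1 fell in WT mice (25%, against 17.9%). The mucosal mast cell proteases Mcpt2 (log2 fold change 3.19 in KO and 3.10 in WT mice) and Mcpt1 (2.63 and 2.31) and the carboxypeptidase Cpa3 (1.46 and 1.15) rose, while Kit, the stem cell factor receptor that mast cells share with pacemaker cells of the gut, fell (-0.72 and -0.83). With the smooth muscle level as a covariate 7 of the 16 were called in KO and 2 in WT mice, beside 15.9% and 6.49% of all genes. The neutrophil genes S100a8 and S100a9 were not called, with 0.28 and 0.06 in KO and 0.21 and 0.03 in WT mice. Of 11 endothelial and fibroblast genes none was called on heme, with medians of -0.177 in KO and -0.094 in WT mice, and 4 in KO and 2 in WT mice had an unadjusted p under 0.05. These counts rested on WT control replicate 3, without which 3 fell in KO mice and 6 in WT mice, with medians of -0.177 and -0.387.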

How the data were processed

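Gene expression was measured in scraped colon of 23 mice on Affymetrix Mouse Gene arrays, with 100 ng of RNA each. The authors deposited log2 values of each probe set, computed with Robust Multi-array Average (RMA) over all arrays; a version and a genome build are not given in the sources used here. Since normalisation was joint, the values were used as deposited, and samples were matched to columns by title, with 0 columns left unmatched. The study left out 1 WT control array for quality. The methods name reorganised probe sets, whereas the deposited rows are those of the manufacturer, so that the probes behind a gene can differ. The labels and the methods name different RNA columns and labelling kits.

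Of 35556 probe sets, 21218 carried 1 gene symbol in the platform annotation (21185 matched by Entrez number to RefSeq, GRCm38.p6), 1881 carried several and 12457 none. Probe sets with several symbols were not used. Where a gene had several probe sets (1386 genes), its brightest on average was taken, which left 18820 genes. Array medians were 5.80 to 5.90. Arrays have no read depth, and their number limits the precision.

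limma 3.58.1 (R 4.3.3) fitted the 4 groups in 1 model, with contrasts for heme in each genotype, genotype within each diet and the interaction. Calls required an adjusted p under 0.01 over all genes and a mean signal above 20, the thresholds of the methods, which name no test for their q-values. Relations with Il15 were tested by two-sided permutation (100000 draws) with numpy 2.4.6 and scipy 1.17.1 under Python 3.11.15, tables were handled with pandas 2.3.3 and figures drawn with matplotlib 3.10.9. The fits were tested on simulated data. Full values are given for markers called in any contrast and, in the closing section, for those with an outlying mouse; up to 4 called genes are named of each other list, and Il15ra, Stat5b, Tbx21, S100a8, S100a9 and Ptprc were named outside this rule. The markers and the 10 other lists were chosen with earlier results of these data known. Replicates are mice numbered within a group. Alternatives were averaged probe sets, other signal minimums and thresholds, variance models, array weights, centring, linear values, fits restricted to the arrays of a comparison, the replicate number as a block, tissue levels as covariates and each array left out. Leaving out 2 arrays together and the general white blood cell level as a covariate were added after seeing the data.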

Additional observations from a re-analysis of the deposited data

Results flagged for a closer look

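A sample far from the others of its group, by Dixon's ratio at the 95% critical value, was found in 21 of 160 combinations of marker and group, and chance alone would mark about 8 (1 in 20). Of these, 6 were in WT control replicate 3, 5 in KO heme replicate 1, 3 in KO control replicate 3 and 2 in WT heme replicate 5.

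In KO heme replicate 1 the signals were high for Cd3e (143.29, against 57.9 to 75.4 in the other mice of its group), Cd5 (122.67, against 45.9 to 63.1), Cd8a (58.092, against 35.9 to 40.9), Cd8b1 (60.332, against 35.9 to 39.4) and Cd14 (442.86, against 236 to 283). The B cell genes of this mouse were high as well but not marked, since KO heme replicate 6 widened the range of the group at the low end.

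WT control replicate 3 was low in macrophage genes. Its C1qa was 54.789 (112 to 117 in the others), C1qb 157.96 (335 to 431), C1qc 44.408 (147 to 173), Csf1r 76.286 (165 to 186), Adgre1 30.454 (75.3 to 97.5) and Cd68 84.158 (119 to 125). The mean log2 level of 11 endothelial and fibroblast genes was also lowest in this mouse, at 6.52, where the median of the group was 7.78.

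KO control replicate 3 was high in C1qa (185.06, against 96.2 to 117) and Cd14 (235.64, against 168 to 189) and low in Cd3d (15.612, against 20.3 to 22.4). WT heme replicate 5 was low in Csf1r (115.99, against 142 to 157) and Adgre1 (62.071, against 77.6 to 85.4). Single values were marked for Itgam in WT heme replicate 1 (68.45, against 50.9 to 56.4), Itgae in WT heme replicate 3 (47.801, against 54.2 to 58.4) and Cd247, the ζ chain of the T cell receptor, in WT control replicate 1 (24.816, against 28.8 to 29.1). The same holds for Klrd1 in KO heme replicate 3 (28.627, against 30.2 to 31.2) and Ncr1 in KO heme replicate 2 (9.3564, against 12.4 to 13.2).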

How the results depend on the processing

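For the 6 markers called in any comparison, no log2 fold change put to this check changed direction in 507 comparisons with an alternative. Values of the other genes were not part of it, and some list medians given above changed sign when a single mouse was left out. Gzma and Nkg7 kept their calls in KO mice under all alternatives except the signal minimum of 50, which dim genes cannot pass. In WT mice Gzma did likewise, and Nkg7 lost its call also with smooth muscle (adjusted p = 0.0116) or epithelial level (0.0108) as a covariate. Ccl5, Itgam and Cd14 kept theirs in KO mice under every alternative run. Of 3 T and NK genes called on heme in WT mice, the count was 0 at a signal above 50, where 16.6% of all genes were called. It was 7 at an adjusted p under 0.05 (27.1% of all genes) and 6 with array weights (22.3%). With the smooth muscle or epithelial covariate it was 1 (6.49% and 10.8%), and with the white blood cell covariate 6 (18.8%). It was 5 without the 2 arrays that stood apart (18.1%) and 2 to 5 with single arrays left out. Of 3 in KO mice the count was 1 at a signal above 50 (17.4% of all genes) and 6 at an adjusted p under 0.05 (27.8%). It was 5 with the white blood cell covariate (19.8%), 6 without the 2 arrays (19.1%) and 3 to 6 with single arrays left out. The B and plasma cell count in WT mice was 1 (Tnfrsf17) with the white blood cell covariate, where 18.8% of all genes were called. The single macrophage call in WT mice (Itgam) was 0 in the ordinary two-way model (17.1% of all genes) and on linear signal (17.2%). It was also 0 with the smooth muscle (6.49%) and the epithelial covariate (10.8%), and 0 to 1 with single arrays left out. The single call of KO against WT on heme (Cd14) was 0 when just those arrays were fitted and in the ordinary two-way model (adjusted p = 0.0172). It was also 0 on linear signal (0.0404) and with the white blood cell covariate (0.018), and 0 to 1 with single arrays left out. Of all genes 0.0903%, 0.191%, 0.287% and 0.287% were called in the first 4 of these settings, in that order. The causes of these shifts were not tested. Replicate numbers did not pair the mice, since deviations of arrays with the same number correlated by 0.042 on average (-0.27 to 0.287) and 4 of 23 arrays correlated best with their own number. With the replicate number as a block Klrd1 had -0.32 in WT mice (adjusted p = 0.011) and lost its call, Cd8a gained one in KO mice, and no other call of a marker changed. Signal close to background limits Gzma, Cd3d, Ncr1 and Klrk1.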
